A study of Homo sapiens and Mus musculus with 10 samples.

Results

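The RNAs described here encode the 3 sensors of stress in the endoplasmic reticulum (ER), ERN1 (IRE1), EIF2AK3 (PERK) and ATF6, together with ATF6B, a close relative of ATF6. With them stand XBP1, CREB3L2, WFS1 and the Golgi proteases MBTPS1 and MBTPS2. They were taken by symbol from the deposited HEK293T count tables. All 9 symbols had a row among the 16120 transcript rows of the stress set and among the 11976 rows of the genotype set, and 8 had the same transcript among the 10368 that both tables share. ATF6B had a different transcript in each table and was therefore described but not tested. The stress set came from wild-type (WT) HEK293T, a human embryonic kidney line, treated with 300 nM thapsigargin for 6 h (TG), deprived of glucose for 24 h (GD) or mock-treated, with 1 library per condition. Thapsigargin blocks the calcium pump of the ER. The genotype set held 1 library each of UFD1s-deficient GD, UFD1s-deficient mock, WT GD and WT mock cells of the same line. The labels give neither the way the deficient line was made nor its number of clones.

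When unfolded proteins gather in the ER, IRE1 cuts a short segment out of XBP1 mRNA, and the rejoined message encodes the active transcription factor XBP1s. PERK phosphorylates the translation factor eIF2alpha, which lowers protein synthesis while favouring translation of ATF4. ATF6 moves to the Golgi, where site-1 protease (MBTPS1) and site-2 protease (MBTPS2) release its transcription factor domain, and CREB3L2 is an ER-anchored relative activated by the same kind of cleavage. WFS1 is an ER membrane protein known to restrain ATF6. The levels below are RNA levels, and neither cleavage, phosphorylation nor splicing was measured directly.

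The XBP1 row needs its sequence to be read correctly. Its transcript, NM_001079539.1, is the spliced form. In the GENCODE transcripts on GRCh38, the matching spliced transcript lacks 26 bases of the unspliced one, at chr22:28796127-28796152 on the minus strand, inside coding exon 4 of 5 and at bases 567 to 592 of the 1850-base unspliced transcript. Both forms are printed here because the count for XBP1 is listed under the second of them. The capitals mark the 26 bases that IRE1 removes, with 25 bases of transcript on either side.
XBP1 unspliced: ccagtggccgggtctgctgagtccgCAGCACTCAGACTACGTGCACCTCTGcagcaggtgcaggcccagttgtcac
XBP1 spliced: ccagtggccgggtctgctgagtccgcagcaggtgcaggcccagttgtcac
Most of either transcript is shared, and the assignment of shared reads is not given in the sources used here. A count for the unspliced form was not analysed here, so the XBP1 values below are reads listed under the spliced transcript and not a spliced share.

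The 300-base promoter windows of RefSeq on GRCh38.p14, from 250 bases before the start site to 50 after it, were searched for 5 motifs of ER stress genes on both strands. XBP1 and CREB3L2 had 2 windows each and the other 7 genes had 1. Among these windows an ER stress response element (ERSE: CCAAT, any 9 bases, then CCACG) stood in a window of XBP1, at bases −52 to −34 from the start site, and 27 of all 35116 windows (0.0769%) held it. A cyclic AMP response element (CRE, TGACGTCA), a palindrome, stood in a window of CREB3L2 at bases −179 to −172, and 649 windows (1.85%) held it. The stretches that carry them are printed with the motif in capitals, for XBP1 at chr22:28800570-28800689 and for CREB3L2 at chr7:138002207-138002306, both on the minus strand.
XBP1 promoter: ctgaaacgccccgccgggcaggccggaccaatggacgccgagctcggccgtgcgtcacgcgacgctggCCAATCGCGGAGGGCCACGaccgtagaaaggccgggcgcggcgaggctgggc
CREB3L2 promoter: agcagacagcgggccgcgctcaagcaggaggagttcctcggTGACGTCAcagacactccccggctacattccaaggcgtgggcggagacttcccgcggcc
The letters of ERSE-II (ATTGG, any base, then CCACG, in 0.0541% of windows), the unfolded protein response element (UPRE, TGACGTGG, 0.729%) and the amino acid response element core (CARE, TGATGCAAT, 0.236%) were in none of the windows of the 9 genes. A match describes the letters of a window and shows no binding.

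**Figure D1:**
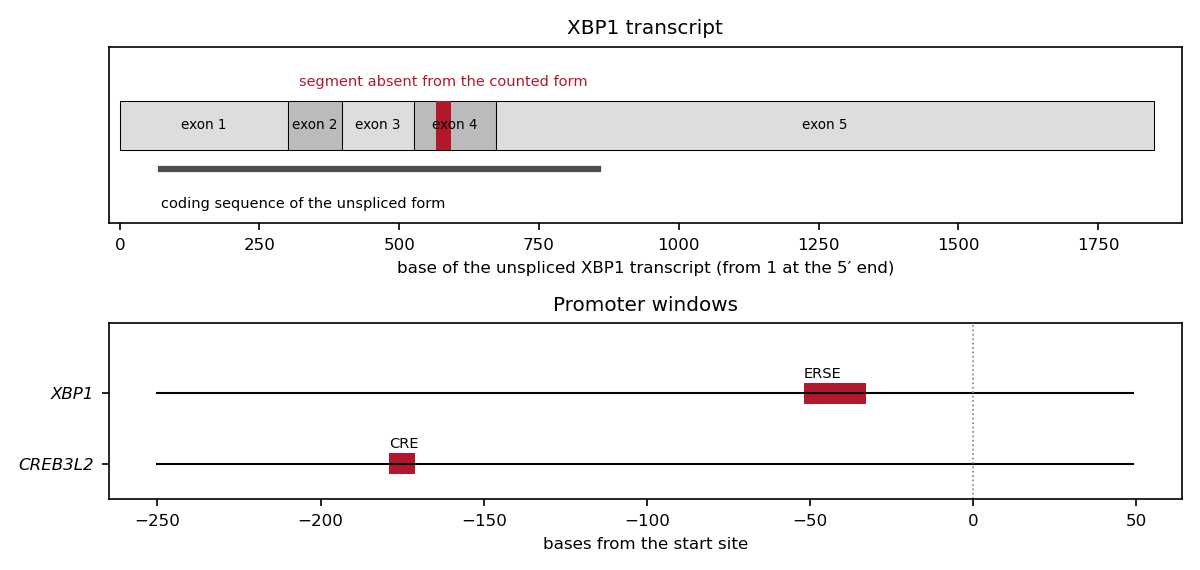
Top, the unspliced XBP1 transcript drawn to scale in bases from its 5′ end, with its 5 exons, its coding sequence and, in red, the 26 bases at 567 to 592 that the counted form lacks. Bottom, promoter windows of XBP1 and CREB3L2 in bases from the start site (dotted line), where red boxes mark the ERSE at −52 to −34 and the CRE at −179 to −172.

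Libraries held between 11461365 and 19024327 reads on listed transcripts. The HEK293 markers NEFL, INA and VIM had reads in all 7 libraries, while PAX2 was not analysed here, NEFM and EYA1 had at most 8 and 26 reads in the stress set, and KRT8 and KRT18 at most 77 and 37 in any library. In GD, NEFL fell (log2 change −0.72, edgeR adjusted p = 0.001801) and VIM rose (0.38, edgeR adjusted p = 0.04277). Of the markers of other cell types, PTPRC, CD3E and HBB were not analysed here and ALB had 0, 5 and 0 reads in TG, GD and mock. The listed UFD1 transcripts are NM_001035247.2 in the stress set, with 0, 0 and 10 reads in TG, GD and mock, and NM_005659.6 in the genotype set. The NM_005659.6 row had 193 and 199 reads in deficient GD and mock, against 107 and 168 in WT GD and mock. No source used here says that these rows cover what the deficient line lacks, so they check nothing about the genotype. Noncoding RNAs moved with GD: MALAT1 took 3.52% of reads in GD against 1.499% in mock of the stress set, 2.22% against 1.60% in the deficient pair and 2.50% against 1.79% in the WT pair of the genotype set. All 4 tested RNAs of that kind (GAS5, SNHG1, MALAT1, NEAT1) rose in GD, by 0.61 to 1.27 on the log2 scale, beside 9.75% of all transcripts. The ribosomal RNA row RNA45SN5 took 8.31%, 10.7% and 7.73% of reads in TG, GD and mock of the stress set. It was not analysed in the genotype set. Their part in the results below was not tested.

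In mock-treated WT cells the rows of the proteases were the highest of the 9 per length. Each row counts 1 transcript and need not be a gene total. Genes with 1 RefSeq mRNA, among them both proteases, had more reads on their row (last section). Levels are reads scaled to library size (CPM) with TMM factors, called scaled CPM, and divided by transcript length in kilobases where genes are compared. In the mock libraries of the stress set and of the genotype set (in this order), MBTPS2 had 92.9 and 80.4 scaled CPM per kb. MBTPS1 followed with 62.8 and 69.7. ATF6 had 30.9 and 27.0, CREB3L2 24.1 and 22.5, and EIF2AK3 14.1 and 10.9. These 5 kept their order in both libraries, and no neighbours among them overlapped across the pair of libraries. ERN1 was lower, at 2.05 and 3.17 scaled CPM per kb, and the spliced-form row of XBP1 was at 1.36 and 1.44. WFS1 was at the bottom with 0.152 and 0.559, from 10 and 26 reads. The place of ATF6B depended on its transcript. It had 0.443 scaled CPM per kb as NM_001136153.1 in the stress set and 3.44 as NM_004381.4 in the genotype set, so it stood below XBP1 in the first and above ERN1 in the second. The matching GENCODE transcripts of these ATF6B forms differ by 13 bases at the start and by a 9-base insert.

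**Figure D2:**
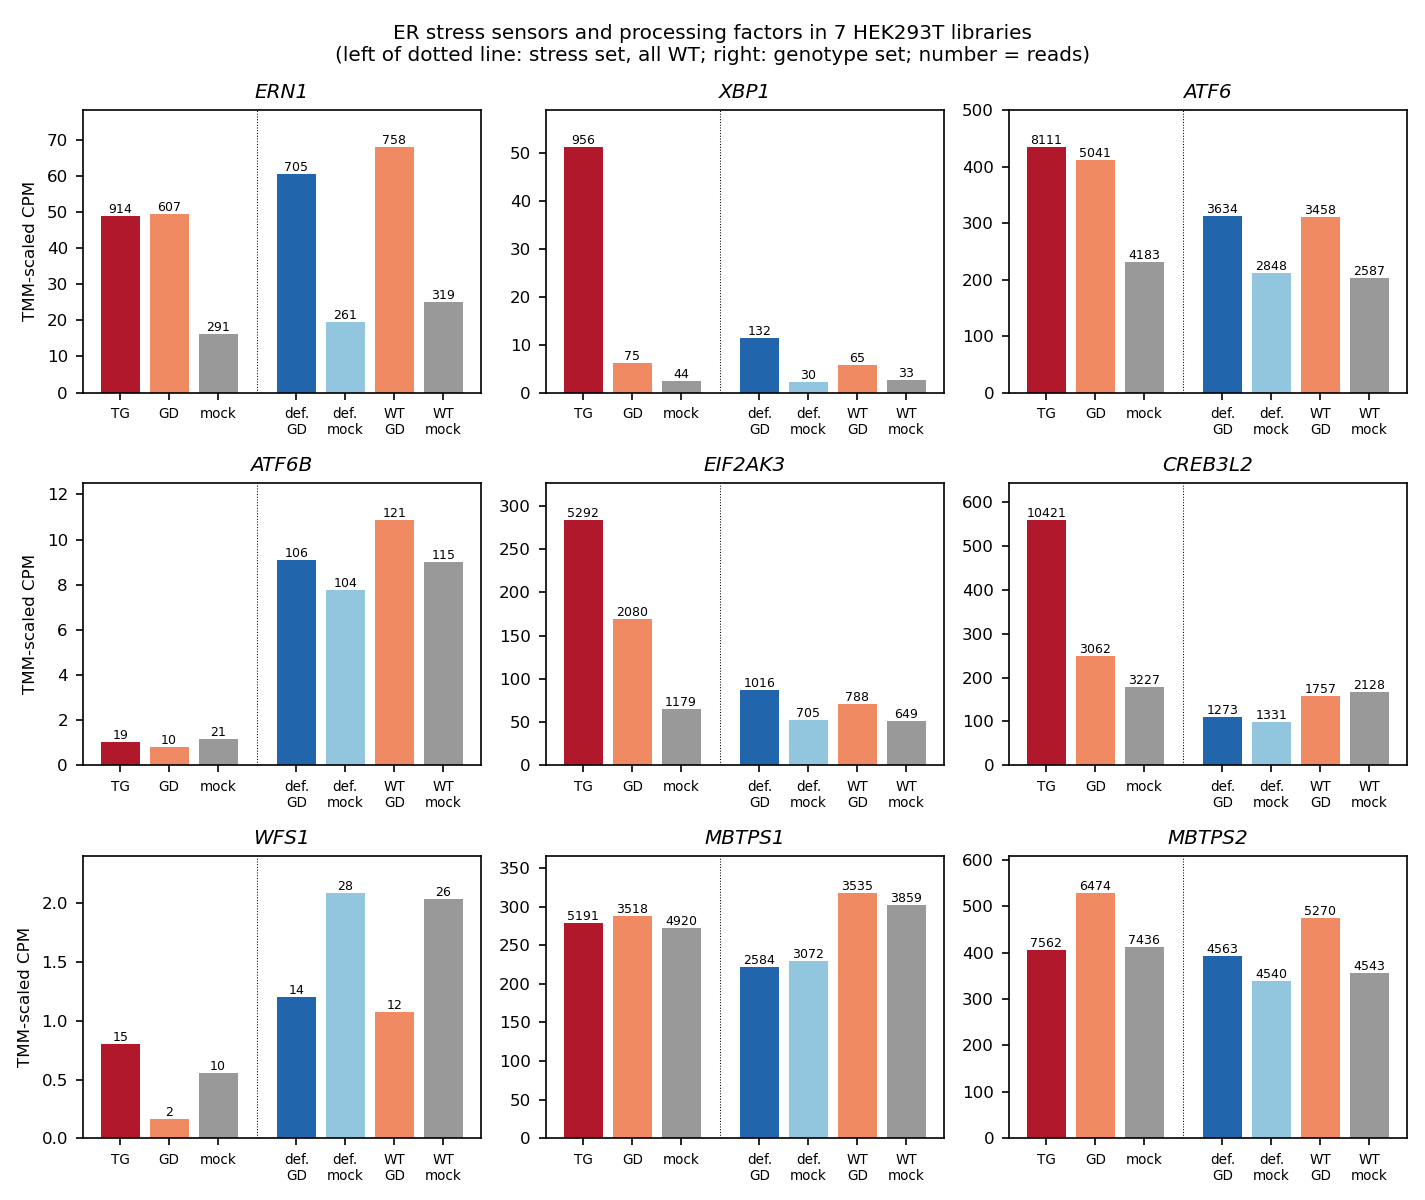
Level of each of the 9 RNAs in scaled CPM (bars, linear axis from 0) in the 7 HEK293T libraries, with the read count above each bar. XBP1 reached 51.3 scaled CPM in TG and at most 11.3 elsewhere, while ERN1 stood between 49.0 and 68.1 in the TG library and all GD libraries and between 16.1 and 24.99 in all mock libraries.

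RNAs of each of the 3 branches stood higher in TG than in mock, with XBP1 far ahead of the rest. TG and mock have 1 library each, so no test was made, and the intervals given are exact 95% intervals that cover counting error only. In bulk RNA, fewer cells of a kind and less RNA per cell cannot be told apart. Of the 7 RNAs whose higher library held at least 50 reads, 4 were at least 2-fold higher in TG and 0 were at least 2-fold lower. Among all 9116 rows with as many reads, 4.73% were at least 2-fold higher. XBP1, with 44 reads in mock, reached 50 reads through TG alone.

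The IRE1 branch had the highest ratio. The XBP1 row had 956 reads in TG and 44 in mock, or 51.3 against 2.43 scaled CPM, a ratio of 21.1 (15.6 to 29.2). Of the 9116 rows, 4 had a higher log2 ratio. DDIT3 of the PERK branch and the ATF6 target HSPA5 are among them (log2 ratios 4.46 and 4.33, against 4.23 for XBP1). ERN1, the kinase and endonuclease that cuts XBP1, had 914 reads in TG and 291 in mock, or 49.0 against 16.1 scaled CPM, a ratio of 3.04 (2.66 to 3.48). The intervals of the 2 ratios did not overlap.

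In the PERK branch, EIF2AK3 itself had 5292 reads in TG and 1179 in mock, or 283.7 against 65.3 scaled CPM. Its ratio was 4.35 (4.08 to 4.63), the second highest of the 9 RNAs, and 79 rows had a higher one. ATF6, with 8111 reads in TG and 4183 in mock, or 434.9 against 231.5 scaled CPM, fell short of 2-fold at 1.88 (1.81 to 1.95). CREB3L2, whose protein is an ER-bound transcription factor like ATF6, had 10421 reads in TG and 3227 in mock, or 558.7 against 178.6 scaled CPM. Its ratio of 3.13 (3.01 to 3.25) exceeded that of ATF6.

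The proteases that process ATF6 had ratios near 1. MBTPS1 had 5191 reads in TG and 4920 in mock, a ratio of 1.02 (0.983 to 1.06). MBTPS2 had 7562 reads in TG and 7436 in mock, a ratio of 0.985 (0.954 to 1.02). Both intervals hold 1, and with library totals in place of TMM factors, which shifts every TG over mock log2 ratio by −0.117, the log2 ratios were −0.09 for MBTPS1 and −0.14 for MBTPS2. ATF6B (19 reads in TG, 21 in mock) and WFS1 (15 in TG, 10 in mock) had too few reads for a ratio to be read, with intervals of 0.446 to 1.71 and 0.611 to 3.62.

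**Figure D3:**
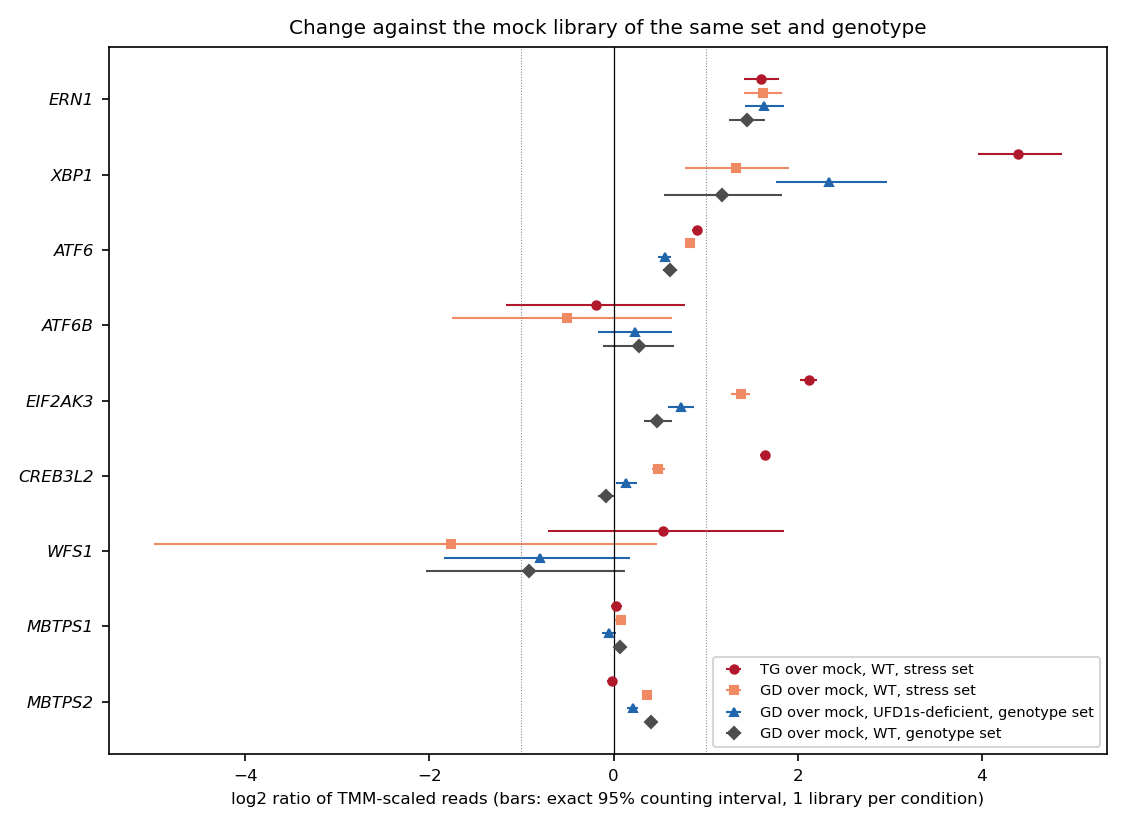
Log2 ratio over the mock library of the same set and genotype for each of the 9 RNAs (horizontal axis), for TG (circles), GD in the stress set (squares), GD in UFD1s-deficient cells (triangles) and GD in WT cells of the genotype set (diamonds), with exact 95% counting intervals and dotted lines at 2-fold. The 4 ERN1 points lie together between 2.72-fold and 3.11-fold, whereas the XBP1 points run from 2.26-fold to 21.1-fold.

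Glucose deprivation could be tested, because 3 pairs of GD and mock libraries exist (the WT pair of the stress set, and the deficient and WT pairs of the genotype set). edgeR's quasi-likelihood test with set and genotype as terms and Benjamini-Hochberg adjustment over all 10368 shared transcripts was used, with an adjusted p under 0.05 as a call. Of the 8 RNAs tested, 5 rose (ERN1, XBP1, ATF6, EIF2AK3 and MBTPS2) and 0 fell. Of all 10368 transcripts, 9.75% rose, and 46.7% of the 2164 calls were rises. With library totals 30.9% of 2209 calls were rises. The spread behind these p-values is that of the GD response over the 3 pairs, moved for each transcript toward a trend over all transcripts. No condition was repeated within a set and nothing in the labels says that libraries came from separate cultures, so that spread may be technical. Taken pair by pair without a test, the RNAs at least 2-fold higher in GD were 3 of 7 in the stress set, 2 of 8 in deficient cells and 2 of 8 in WT cells of the genotype set, beside 3.73%, 2.14% and 2.39% of all rows with as many reads. ERN1 and XBP1 were among them in each pair, joined by EIF2AK3 in the stress set. In each pair XBP1 reached the minimum of reads for these counts through its GD library alone. Its mock libraries held 44 reads in the stress set, 30 in deficient cells and 33 in WT cells of the genotype set.

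ERN1 gave the most even response. It had 607 reads in GD and 291 in mock of the stress set, 705 in deficient GD and 261 in deficient mock, and 758 in WT GD and 319 in WT mock of the genotype set. In scaled CPM the GD libraries had 49.6, 60.6 and 68.1 and their mocks 16.1, 19.5 and 24.99, so the groups did not overlap. The fitted log2 change was 1.56 ± 0.12 (SE, 3 pairs, edgeR adjusted p = 0.0001938). It was the single RNA of the 8 called under each of the 14 alternative settings (edgeR or DESeq2), with adjusted p up to 0.03405. Some of these settings are the same comparison, since leaving out either library of a pair removes that pair from the GD term. With treatment as the only term edgeR called none of the other 7, although the log2 changes were as large. They were 1.66 for XBP1 (adjusted p = 0.1209), 0.68 for ATF6 (0.2223), 0.97 for EIF2AK3 (0.2975) and 0.33 for MBTPS2 (0.547). That fit leaves the differences between sets and genotypes in the spread.

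XBP1 rose by a similar fitted log2 change of 1.61, but with an SE of 0.32 (3 pairs, edgeR adjusted p = 0.00826). It had 75 reads in GD and 44 in mock of the stress set, 132 in deficient GD and 30 in deficient mock, and 65 in WT GD and 33 in WT mock of the genotype set. These are 6.12, 11.3 and 5.84 scaled CPM in GD against 2.43, 2.24 and 2.58 in mock. The groups did not overlap, and deficient GD stood above both WT GD libraries. The call was lost in the 4 WT libraries, where the log2 change was 1.24 (edgeR adjusted p = 0.09638). There calls over all transcripts fell from 2164 to 490, so the part of the deficient pair cannot be told from that of fewer libraries. Leaving out either deficient library gave the same log2 change. The genotype term takes up the 1 that remains, so these are the same comparison.

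EIF2AK3 rose by 0.87 ± 0.15 on the log2 scale (SE, 3 pairs, edgeR adjusted p = 0.005262). Its levels were 169.8, 87.3 and 70.8 scaled CPM in GD of the stress set, of deficient cells and of WT cells of the genotype set, against 65.3, 52.6 and 50.8 in their mocks. The mock libraries lay close together, whereas GD of the stress set stood well above the other GD libraries. The pair ratios were 2.60 in the stress set, 1.66 in deficient cells and 1.39 in WT cells of the genotype set, so the size of the rise differed more between the WT pairs than between genotypes. ATF6 rose by 0.66 ± 0.089 (SE, 3 pairs, edgeR adjusted p = 0.00156), with 411.5, 312.3 and 310.7 scaled CPM in GD against 231.5, 212.5 and 202.6 in the mocks. No ATF6 value in GD overlapped the mock values.

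MBTPS2, site-2 protease, rose by 0.32 ± 0.086 on the log2 scale (SE, 3 pairs, edgeR adjusted p = 0.02757). Its levels were 528.5, 392.1 and 473.4 scaled CPM in GD of the stress set, of deficient cells and of WT cells of the genotype set, against 411.6, 338.8 and 355.9 in their mocks. Each GD library stood above its own mock, but deficient GD lay below the mock of the stress set. The call was lost with library totals (edgeR adjusted p = 0.06909) and without any one of the 4 genotype-set libraries (edgeR adjusted p from 0.1649 to 0.2957), while the log2 change stayed between 0.24 and 0.38. Leaving out the GD or the mock library of a pair is the same GD comparison, so these 4 fits are not separate checks. YY2 overlaps MBTPS2 and has a row of its own, antisense genes overlap EIF2AK3 and CREB3L2, and no source used here says whether counting used strand.

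Site-1 protease gave no call. MBTPS1 had 287.2, 222.0 and 317.6 scaled CPM in GD against 272.3, 229.3 and 302.3 in the mocks (log2 change 0.03, SE 0.083, edgeR adjusted p = 0.8413), and its sign turned with library totals (−0.05). CREB3L2 had 3062, 1273 and 1757 reads in GD against 3227, 1331 and 2128 in the mocks, which gave scaled ratios of 1.40, 1.10 and 0.947 (log2 change 0.18, SE 0.11, edgeR adjusted p = 0.2863). It was higher in GD in the stress set and in deficient cells but not in WT cells of the genotype set. WFS1 had 2, 14 and 12 reads in GD against 10, 28 and 26 in the mocks (log2 change −1.005, SE 0.50, edgeR adjusted p = 0.1874), lower in 3 of 3 pairs with few reads. ATF6B, not tested, had 106 reads in deficient GD and 104 in deficient mock, a ratio of 1.17 (0.887 to 1.55), and 121 in WT GD and 115 in WT mock, a ratio of 1.21 (0.927 to 1.57).

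TG and GD share the mock library of the stress set, so they were also set against each other directly. ERN1 was at the same level in both, 49.0 scaled CPM in TG and 49.6 in GD, a ratio of 0.989 (0.891 to 1.10). ATF6 was nearly so, with a ratio of 1.06 (1.02 to 1.09). XBP1, in contrast, was 8.37-fold higher in TG (6.61 to 10.7), and 10 of 8918 rows had a higher log2 ratio. CREB3L2 was 2.24-fold higher in TG (2.15 to 2.33) and EIF2AK3 1.67-fold higher (1.59 to 1.76). MBTPS2 was lower in TG, at 0.767 of GD (0.742 to 0.793). Thus 2 of 7 RNAs with enough reads were at least 2-fold higher in TG than in GD, against 4.58% of 8918 rows. The treatments differ in kind and in duration (6 h of thapsigargin, 24 h without glucose), and TG had 1 library.

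**Figure D4:**
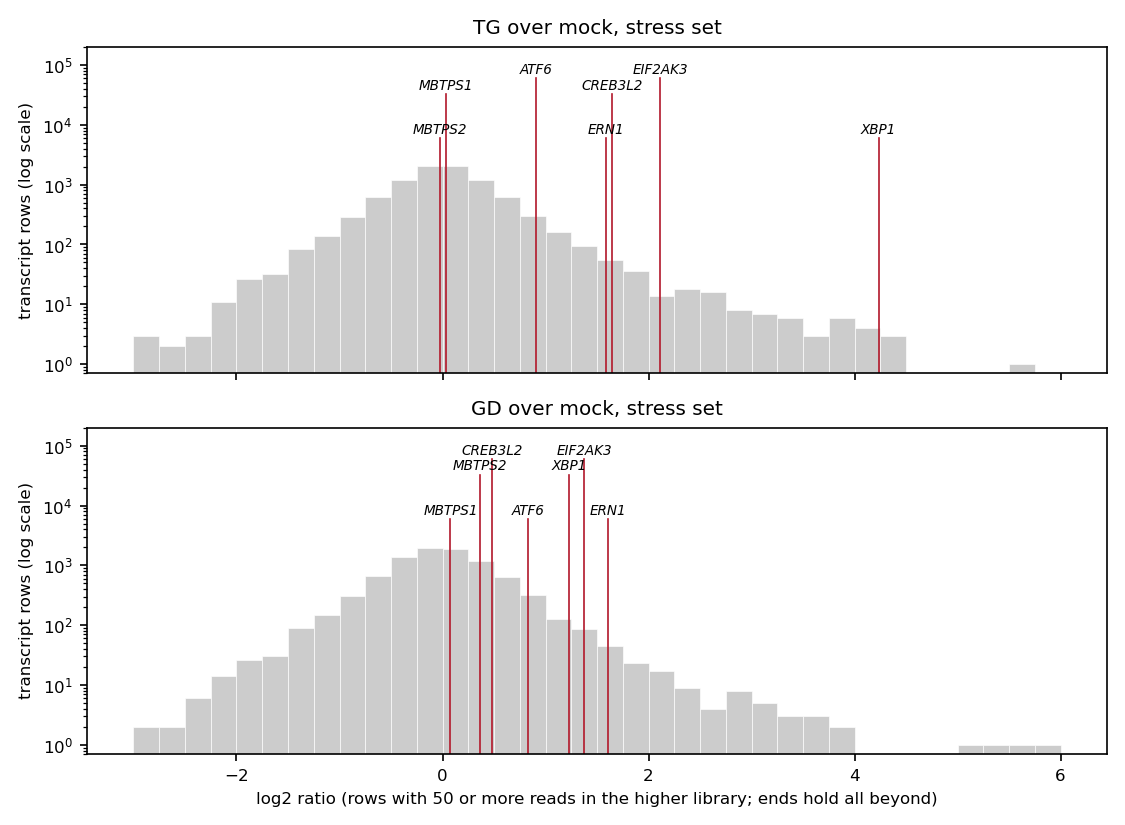
Number of transcript rows (log axis) by log2 ratio in TG over mock (top, 9116 rows) and GD over mock (bottom, 8904 rows) of the stress set, for rows whose higher library held at least 50 reads, with red lines at the RNAs described here. XBP1 stands at 4.23 in TG and at 1.23 in GD, while ERN1 stands at 1.59 and 1.60.

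Genotype was the next comparison. None of the 8 RNAs was called between UFD1s-deficient and WT cells by edgeR over mock and GD together, against 1.11% of the 10368 transcripts (115 calls, and 1470 at an unadjusted p under 0.05). The closest were CREB3L2 and MBTPS1, both lower in deficient cells. CREB3L2 had 109.4 and 99.3 scaled CPM in deficient GD and mock, against 157.8 and 166.7 in WT GD and mock, without overlap (log2 difference −0.64, SE 0.14, edgeR adjusted p = 0.06239). MBTPS1 had 222.0 and 229.3 in deficient GD and mock, against 317.6 and 302.3 in WT GD and mock, also without overlap (log2 difference −0.46, SE 0.10, edgeR adjusted p = 0.07372).

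The differences of CREB3L2 and MBTPS1 passed the threshold in other fits, which carry the same limit. DESeq2 called 2 of the 8, CREB3L2 (adjusted p = 0.01208) and MBTPS1 (adjusted p = 0.04248). It called 222 transcripts in all, against 115 in the main fit. edgeR on the 4 genotype-set libraries called 3, with MBTPS2 added at a log2 difference of −0.17 (adjusted p = 0.01267). That fit called 1942 transcripts in all, and the fits without stress-set mock or stress-set GD called 1655 and 1938. For genotype these 3 fits are the same comparison, since the set term takes up a stress-set library left on its own. With so many calls, nothing particular to these RNAs is read from the added ones. Leaving out 1 library at a time gave 0 to 3 calls: 3 without stress-set mock or without stress-set GD, 1 (CREB3L2) without WT GD of the genotype set, and 0 without any of the other 3. In the authors' deposited table the log2 ratios of CREB3L2 were −0.526 in GD (p = 0.205) and −0.759 in mock (p = 0.0679). For MBTPS1 the authors' deposited table gives −0.513 in GD (p = 0.214) and −0.411 in mock (p = 0.319). The other 6 RNAs differed by −0.26 (ERN1) to 0.48 (XBP1) in the edgeR fit, with adjusted p of 0.4845 or more. The signs of XBP1, ATF6, EIF2AK3 and WFS1 turned in 1 alternative setting each, and XBP1 ran from −0.17 to 0.93.

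The GD response itself was compared between genotypes by the interaction of genotype and treatment. edgeR called 0 of 10368 transcripts (0.00%), with 123 at an unadjusted p under 0.05, and DESeq2 also called 0. XBP1 had the largest difference of the 8, with a GD over mock ratio of 5.07 (3.39 to 7.80) in deficient cells and 2.26 (1.46 to 3.55) in WT cells of the genotype set. The fitted interaction was 1.09 on the log2 scale (SE 0.63, edgeR adjusted p = 1, unadjusted p = 0.1167), so the difference between genotypes did not pass the test. In the authors' deposited table, deficient over WT for XBP1 is 0.96 in GD (p = 0.0415) and −0.219 in mock (p = 0.739). For the other 7 RNAs the interaction lay between −0.20 (EIF2AK3) and 0.37 (WFS1).

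Genes downstream of the sensors were counted from lists of textbook targets. Of the ATF6 targets, 9 of 10 tested rose in GD and 0 fell, beside 9.75% of all transcripts that rose, with a median log2 change of 1.20 beside −0.02 over all transcripts. HSPA5, the ER chaperone BiP, rose by 2.45 ± 0.24, HERPUD1, which serves ER-associated degradation, by 2.26 ± 0.45, MANF by 1.30 ± 0.19 and the chaperone HSP90B1 by 1.25 ± 0.18 (log2, SE, edgeR adjusted p from 0.0003741 to 0.008339). The member that did not pass was HYOU1 (log2 change 0.55, edgeR adjusted p = 0.4813), whose row held few reads. It had 4, 43 and 30 reads in GD of the stress set, of deficient cells and of WT cells of the genotype set. Their mocks had 12, 20 and 22. In TG 10 of the 11 ATF6 targets in the stress table were at least 2-fold higher, beside 4.73% of all rows with 50 reads or more. Of these, CRELD2 (50 reads in TG, 2 in mock) and HERPUD1 (499 in TG, 21 in mock) reached 50 reads through TG alone, while HYOU1 (4 in TG, 12 in mock) was below that minimum. HSPA5 had 281566 reads in TG, 89962 in GD and 13540 in mock of the stress set.

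Of the XBP1 targets, 5 of 12 tested rose in GD and 0 fell, beside 9.75% of all transcripts that rose, with a median log2 change of 0.45. DNAJB9, a co-chaperone of BiP, rose by 1.65 ± 0.14 (SE, edgeR adjusted p = 0.0002677), the COPII coat gene SEC24D by 0.83 ± 0.22 (SE, edgeR adjusted p = 0.02668) and EDEM1, which acts on misfolded glycoproteins, by 0.73 ± 0.10 (SE, edgeR adjusted p = 0.002034). ERLEC1 did not pass (log2 change 0.85, edgeR adjusted p = 0.0906). In TG 11 of 12 with enough reads, all 12 of them with 50 or more in mock too, were at least 2-fold higher, beside 4.73% of all rows with 50 reads or more, with a median log2 ratio of 1.54. Set directly against GD, TG was at least 2-fold higher for 6 of 12 XBP1 targets and 4 of 10 ATF6 targets, beside 4.58% of all rows. DNAJB9 had 4379 reads in TG, 1102 in GD and 418 in mock, which gave 2.61 (2.44 to 2.79) for TG over GD. Between genotypes edgeR called 1 of the 12, EDEM1, with a log2 difference of 0.70 ± 0.13 for deficient over WT (SE, edgeR adjusted p = 0.03948). Of all transcripts 1.11% were called, and nothing about the list is read from 1 call.

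In the PERK branch 4 of 9 tested rose in GD and 0 fell, beside 9.75% of all transcripts that rose. They were DDIT3 (CHOP), with a log2 change of 4.14 ± 0.50, the pseudokinase TRIB3 with 2.97 ± 0.26, PPP1R15A, the stress-induced phosphatase subunit for eIF2alpha, with 2.96 ± 0.095, and CHAC1 with 1.72 ± 0.28 (SE, edgeR adjusted p from 7.167e-07 to 0.003853). The ATF4 row did not pass (log2 change 0.14, SE 0.18, edgeR adjusted p = 0.6111). It counts 1 transcript and need not be a gene total. Its reads were 124, 200 and 170 in GD of the stress set, of deficient cells and of WT cells of the genotype set. Their mocks had 168, 179 and 202. In TG 5 of the 11 in the stress table were at least 2-fold higher, beside 4.73% of all rows with 50 reads or more, and 3 of the 5 (DDIT3, CHAC1 and NFE2L2) reached 50 reads through TG alone. Set against GD, the genes of this branch went different ways. TG over GD was 0.639 (0.526 to 0.776) for DDIT3, 0.848 (0.808 to 0.889) for PPP1R15A and 1.03 (0.993 to 1.07) for TRIB3, whereas CHAC1 was higher in TG, at 4.79-fold (3.4 to 6.91).

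Of 11 partners of IRE1 and members of the tRNA ligase complex that rejoins XBP1, 2 rose in GD, PARP16 by 0.79 ± 0.13 and SEC63 by 0.37 ± 0.10, and 2 fell, with log2 changes of −0.48 ± 0.097 for TRAF2 and −0.37 ± 0.11 for MAP3K5 (SE, edgeR adjusted p from 0.004066 to 0.04318). TRAF2 and MAP3K5 link IRE1 to stress kinase signalling. The ligase subunits RTCB, DDX1, FAM98B, RTRAF and ZBTB8OS were not called, and 0 of the 11 passed 2-fold in TG. Calls in GD were 0 of 5 known IRE1 decay substrates. Of the genes of SREBP transport or of substrates of site-1 or site-2 protease, 0 of 6 were called. For the CREB3 relatives it was 0 of 2, for cofactors of ATF6 0 of 3 and for other eIF2alpha kinases 0 of 1. Over all transcripts 20.9% were called in either direction, and in lists of 1 to 6 genes nothing is read from a count of 0. Among the decay substrates, PDGFRB and PMP22 were lower in GD in 3 of 3 pairs without passing (log2 changes −1.30 and −1.11, edgeR adjusted p = 0.09617 and 0.1399). PDGFRB had 33, 17 and 7 reads in GD of the stress set, of deficient cells and of WT cells of the genotype set, against 54, 48 and 60 in their mocks. PMP22 had 2, 18 and 15 reads in these GD libraries, against 10, 28 and 50 in their mocks. In TG, PMP22 was higher, with 50 reads against 10 in mock, and PDGFRB had 34 reads against 54. SPARC, HGSNAT and COL6A1, also tested, had log2 changes in GD from −0.11 to −0.03. BLOC1S1 and SCARA3 lacked a shared transcript and were not tested. In the same order of libraries BLOC1S1 had 16, 4 and 18 reads in GD against 36, 28 and 38 in the mocks. SCARA3 had 4, 372 and 275 in GD against 8, 587 and 432. In TG, BLOC1S1 had 16 reads and SCARA3 had 10. INSIG1, a sterol-responsive regulator of SREBP transport, was 0.480 of mock in TG (0.405 to 0.567). Of the noncoding RNAs named above, GAS5 was 2.77-fold and SNHG1 2.39-fold of mock in TG, and their part in these counts was not tested.

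**Figure D5:**
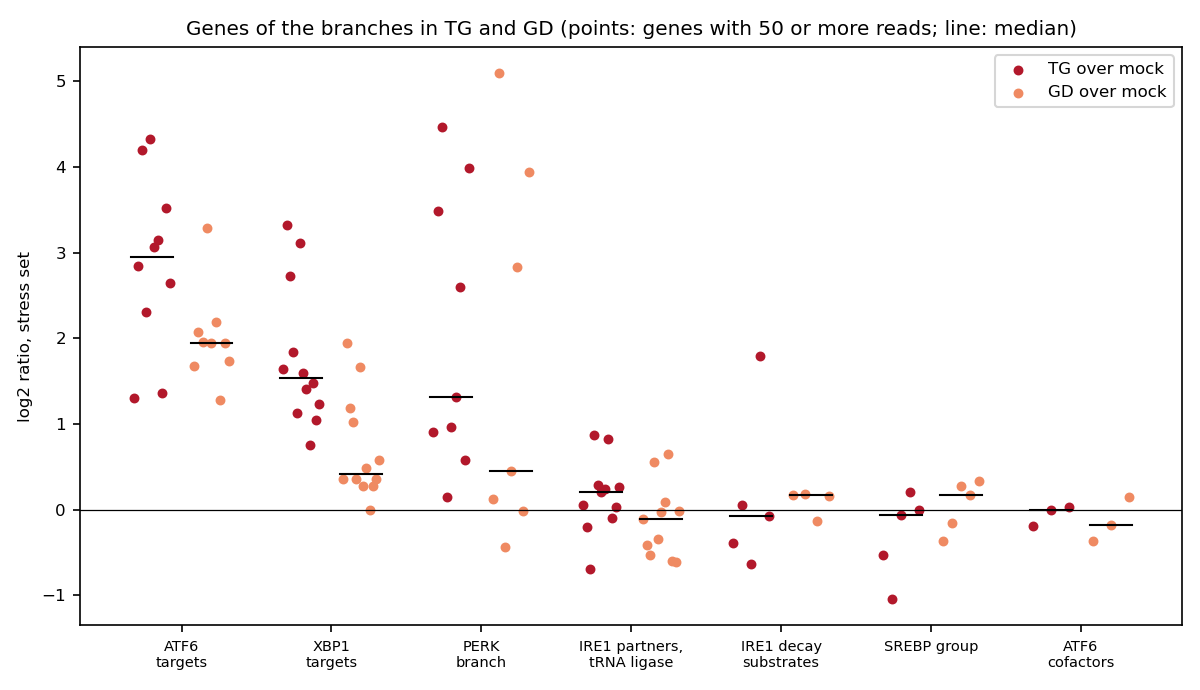
Log2 ratio of each listed gene with 50 or more reads in TG over mock (red) and GD over mock (orange) of the stress set, with the median as a black line. The median of the XBP1 targets is 1.54 in TG and 0.42 in GD, and the medians of the IRE1 partners, decay substrates, SREBP group and ATF6 cofactors lie between −0.18 and 0.20.

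The rows most like XBP1 and ERN1 over the 7 libraries were found by Pearson correlation of log2 scaled CPM among 8630 shared transcripts with a mean of 50 or more reads. For XBP1 they were C12orf73 (r = 0.981), CXCL8 (0.981), MYO1E (0.968), C9orf85 (0.966) and C17orf75 (0.965). For ERN1 they were SLC25A38 (0.986), CEBPB (0.985), IFT172 (0.982), CAMSAP1 (0.980) and PRMT1 (0.979). The 2 groups of 5 share no gene. CXCL8 had 687 reads in TG and 6 to 48 in the other 6 libraries, so it passed the minimum through TG alone. The TG library weighs heavily in the XBP1 values too. The 7 libraries share line, treatments and sets, and these correlations are descriptions.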

How the data were processed

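The extract protocol names TRIzol for total RNA and the TruSeq Ribo Profile kit for the libraries. The software and builds listed in the submitters' processing notes are cutadapt, FastQC, Bowtie2, bedtools, hg19 and mm10; how reads were counted, on which annotation and with what strand setting is not given in the sources used here. Each table lists raw counts deposited by the authors, unnormalized, with 1 RefSeq transcript per symbol, so a row need not be a gene total. For deficient over WT the authors also deposited log2 ratios with p-values, used here for comparison only. The N2a table, whose rows carry no symbols, was not used.

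Counts were scaled with TMM factors and tested with edgeR 4.0.16 in R 4.3.3 on the 6 mock and GD libraries (set, genotype and treatment as terms, 2 residual degrees of freedom, default filter, which removed 0 shared transcripts; 1 residual degree for the interaction). Library totals ran from 11461365 to 19024327 reads. Comparisons with 1 library per condition used scaled CPM with a prior count of 5 for log2 ratios and 50 or more reads in the higher library. The SE given with an edgeR log2 change is its absolute value divided by the square root of the F statistic of the test. Ratios written as folds are of scaled reads, with exact conditional 95% intervals. Intervals cover counting error only, since reads are not independent molecules. DESeq2 1.42.0, other scalings, filters and subsets of libraries were the alternatives. The code was tested on simulated data. Named genes were the 9 members, up to 4 genes per list with the largest GD change, HSPA5, DNAJB9, DDIT3 and ATF4, and the 5 likest rows for XBP1 and ERN1. ATF6B forms, EDEM1, PARP16, SEC63, MAP3K5, UFD1 and other genes outside this rule were added after their values were seen. The members and lists were chosen with earlier results of these data known. Sequences came from RefSeq promoters (GRCh38.p14) and GENCODE transcripts (GRCh38), another build than the authors' hg19.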

Additional observations from a re-analysis of the deposited data

How the results depend on the processing

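The labels carry no replicate numbers to block on. The set and genotype terms of the GD fit already pair each GD library with its own mock. No called value changed direction. Of the results recomputed under other settings, 908 kept their side of the threshold or moved little, 65 lost a call, 30 gained one and 63 moved further. Results without a call in either fit were counted among the 908 also where their sign turned. For GD, edgeR called 4040 transcripts in the genotype set alone, 490 in the WT libraries (3 of the 8 RNAs) and 23 with treatment as the only term (1 of the 8, ERN1), against 2164 (5 of the 8). Leaving out a library gave 494 (without deficient GD) to 4039 transcripts (without stress-set GD) and 3 to 5 of the 8 RNAs. For GD, leaving out either library of a pair is the same comparison. For genotype, DESeq2 called 222 transcripts (2 of the 8 RNAs) and edgeR 1942 in the genotype set alone (3 of the 8), against 115 (0 of the 8). Without stress-set mock or stress-set GD the genotype comparison is that of the genotype set alone. Leaving out a library gave 5 (without either deficient library) to 1938 transcripts (without stress-set GD) and 0 to 3 of the 8. At 1.5-fold instead of 2-fold, the count of transcripts was 2044 for TG over mock, 2265 for TG over GD, and for GD over mock 2023 in the stress set, 2081 in deficient and 2145 in WT cells of the genotype set. With no minimum of reads it was 1758, 2179 and 2006 for TG over mock, TG over GD and GD over mock of the stress set. With library totals, 1 of the RNAs in the WT pair of the genotype set passed 2-fold, against 2 with TMM factors. Library totals shift the log2 ratios of that pair by −0.086. With TMM factors XBP1 was at 1.06, close to the 2-fold line, and ERN1 at 1.43. The interaction without a library was not run, since 0 residual degrees of freedom would remain. WFS1, and ATF6B in the stress set, had fewer than 50 reads in every library, which limits what can be read from them.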

Other observations

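Genes with 1 RefSeq mRNA had more reads on their row than genes with several. In mock of the stress set the median was 282 reads (95.8 per kb) over 5319 genes with 1 mRNA and 61 reads (21.2 per kb) over 7857 genes with 2 or more. ERN1, MBTPS1 and MBTPS2 have 1 RefSeq mRNA each, ATF6 and CREB3L2 have 3, XBP1 has 4 and the other 3 genes have 2. The part of this in the order of their levels per kb was not tested.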
